A study of Arabidopsis thaliana with 18 samples.

Results

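The 10 genes described here encode vacuolar processing enzymes (VPEs) and other proteases of the secretory pathway of Arabidopsis thaliana. They were chosen by identifier among the 27416 genes of each count file, with earlier results of these data in view, and all 10 were among the 20615 genes that passed the filter on low counts. They comprise gamma-VPE (AT4G32940), alpha-VPE (AT2G25940) and beta-VPE (AT1G62710), the 3 cathepsin B type genes AT1G02305, AT4G01610 and AT1G02300, the aspartic protease APA1 (AT1G11910), the granulin-repeat protease RD21A (AT1G47128), the aleurain-like protease AALP (AT5G60360) and the papain family gene AT4G11320. Which values were weighed in choosing them was not recorded. AT4G11320 had been among the largest falls with tunicamycin in wild type, so the response of wild type to tunicamycin counts as used in the choice. It and the members' differences from it, which contain it, are given below as descriptions, without a test.

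VPEs are cysteine proteases of the legumain type that cut after asparagine or aspartate and turn other vacuolar precursors, such as storage proteins, into their mature forms. Gamma-VPE is the vegetative form known for caspase-1-like activity in cell death, and beta-VPE is best known from seeds. Cathepsin B, RD21A and AALP are papain-type vacuolar or secreted proteases made as inactive precursors, and APA1 is an aspartic protease of the vacuole. All enter the endoplasmic reticulum (ER) as they are made. Tunicamycin (TM) blocks N-glycosylation, so that glycoproteins misfold there. IRE1, a kinase and ribonuclease in the ER membrane, senses this, splices the bZIP60 mRNA and can cut mRNAs at the ER membrane.

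The libraries held polyA RNA of whole seedlings grown for 7 days and then kept for 6 h in liquid medium with either the solvent DMSO or 5 µg/mL TM. Wild type (WT), the ire1b mutant and the ire1a/ire1b double mutant (ire1a1b below) each had 3 libraries per treatment, 18 in 6 groups. The sources used here name neither the mutant alleles nor how many seedlings made up a library. Totals were 16.35 to 24.85 M gene counts per library, and levels are CPM values, each gene's count scaled to its library's TMM-adjusted total. IRE1A stood at 19.9 to 24.7 CPM in the 6 libraries labelled ire1a1b and at 79.7 to 93.1 in WT. IRE1B stood at 35.5 to 47.2 CPM in the libraries labelled ire1b and 35.5 to 47.4 in those labelled ire1a1b, against 28 to 36.7 in WT, so a lower IRE1B count was seen under neither mutant label. BIP3, an ER chaperone gene switched on by ER stress, went from 1.81 to 3.65 CPM in DMSO to 2730 to 3040 in TM in WT, and from 1.12 to 1.55 to 95.7 to 108 in the libraries labelled ire1a1b. In those labelled ire1b it went from 5.39 to 15.2 CPM, called higher than WT (edgeR adjusted p = 0.017), to 2630 to 2950, which overlapped WT. On the second principal component (20.7% of the variance) replicate 1 of WT and of ire1a1b, 4 libraries in all, lay at 31 to 47.5, against -27.1 to 3.51 for all others. Members' calls within or between the mutant labels that changed without these libraries are given in both ways below. Calls that involve WT changed too, those of alpha-VPE, RD21A and AALP among them. As WT was used in the choice, those changes are not listed by gene.

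The promoters of 3 members are shown as the genes the results below turn on: gamma-VPE, which changed direction between genotypes, APA1, the member with the highest CPM, and AT4G11320, with the deepest fall. The windows, read from the RefSeq TAIR10.1 genome, run from 250 bases before to 50 bases after the annotated start, 5′ to 3′ on the gene's strand. Gamma-VPE lies at chr4:15903474-15903773 on the minus strand, APA1 at chr1:4020994-4021293 on the minus strand and AT4G11320 at chr4:6886916-6887215 on the plus strand. Capitals mark matches, on either strand, to ACGTG (the core bound by bZIP factors), TGACG (a core of TGA-type bZIP sites, which can share bases with either other core) and TTGAC (the core of WRKY sites).
gamma-VPE: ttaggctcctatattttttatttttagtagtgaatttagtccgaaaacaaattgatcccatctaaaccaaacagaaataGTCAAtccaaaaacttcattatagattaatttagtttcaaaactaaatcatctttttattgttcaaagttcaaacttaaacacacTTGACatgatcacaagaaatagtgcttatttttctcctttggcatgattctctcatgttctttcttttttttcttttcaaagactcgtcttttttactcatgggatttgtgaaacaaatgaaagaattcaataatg
APA1: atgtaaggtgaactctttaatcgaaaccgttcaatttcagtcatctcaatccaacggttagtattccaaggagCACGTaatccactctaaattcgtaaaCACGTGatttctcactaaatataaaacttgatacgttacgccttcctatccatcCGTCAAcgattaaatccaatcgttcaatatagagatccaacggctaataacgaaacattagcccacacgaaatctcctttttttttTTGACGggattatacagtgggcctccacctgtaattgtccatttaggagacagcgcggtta
AT4G11320: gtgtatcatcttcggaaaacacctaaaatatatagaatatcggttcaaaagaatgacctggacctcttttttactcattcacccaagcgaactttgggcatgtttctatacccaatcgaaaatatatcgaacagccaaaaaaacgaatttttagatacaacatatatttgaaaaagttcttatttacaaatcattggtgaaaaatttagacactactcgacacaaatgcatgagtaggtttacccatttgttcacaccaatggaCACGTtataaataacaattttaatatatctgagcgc
In these windows gamma-VPE held 2 matches to TTGAC and 0 to the bZIP cores, APA1 held 3 to ACGTG, including a palindrome counted on both strands, and AT4G11320 held 1 such match. The ACGTG core was present in 4 of the 10 members and in 26.9% of 26709 promoters of equal length, TGACG in 4 and 23.1%, and TTGAC in 5 and 50.5%. The ER stress element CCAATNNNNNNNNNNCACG was found in 0 of the 10 windows and in 0.865% of all. These are matches of letters only.

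All 10 genes were lower with TM than with DMSO in WT, with log2 differences of -0.27 to -2.39 and a median log2 difference of -0.66 against -0.02 over all tested genes. The same TM treatment gave a median of -0.35 in the libraries labelled ire1b and 0.07 in those labelled ire1a1b, where all tested genes had medians of -0.01 and -0.02. In WT 6 of the 10 had an adjusted p below 0.05 in edgeR, all lower, where 5.77% of all genes were called lower and 6.13% higher. The list was chosen with this contrast in view, and nothing is read from that count or from the WT median. With replicate number as a block within each genotype all 10 passed 0.05, and the calls over all genes went from 2453 to 5811. Nothing is read from that count either. In whole seedlings, fewer cells of a type and less RNA per cell cannot be told apart.

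**Figure D1:**
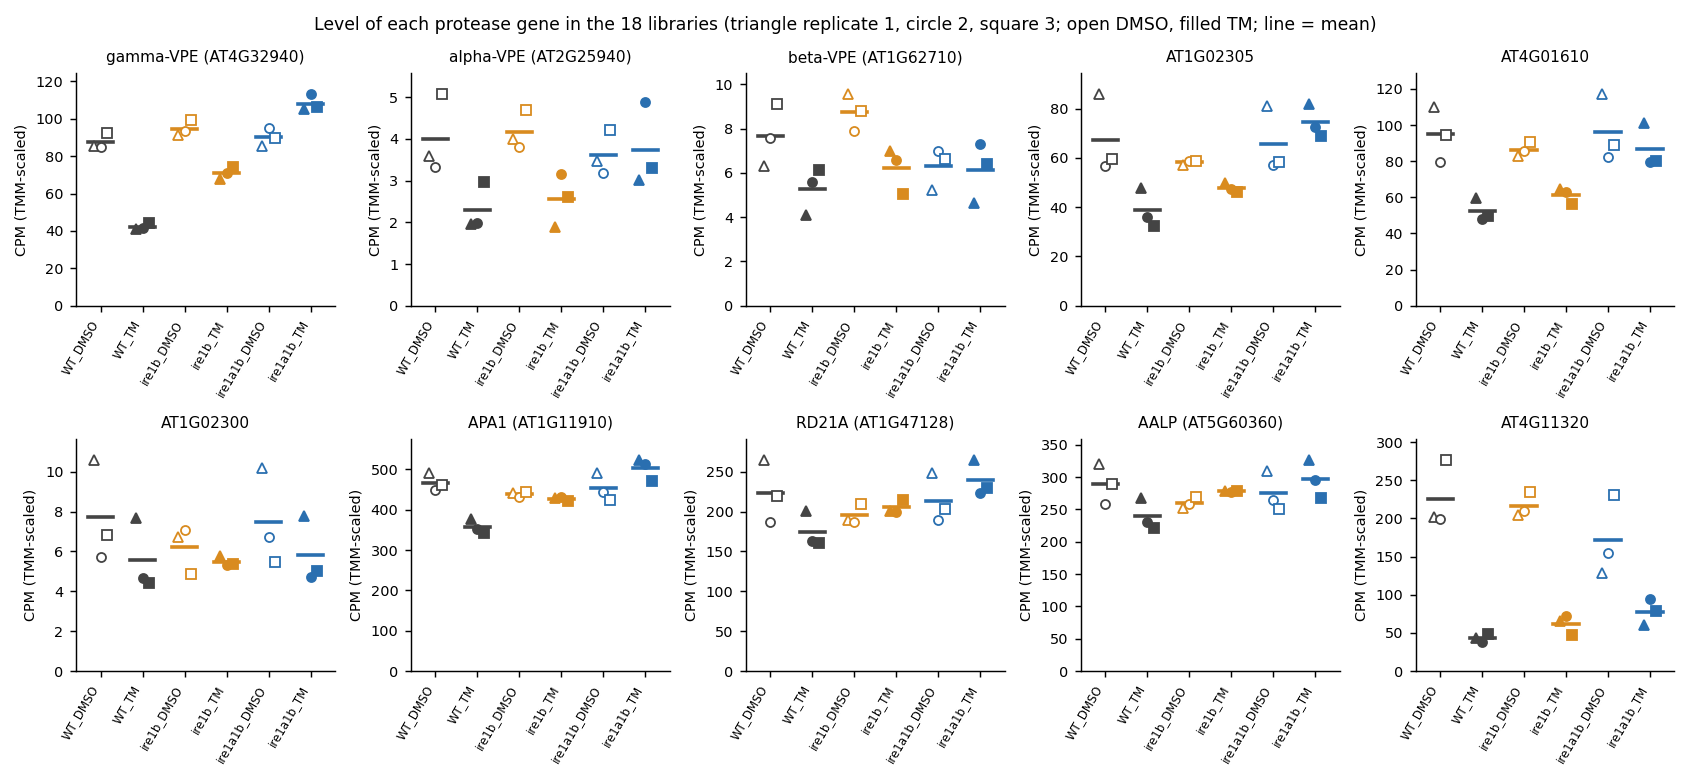
Level of each gene in CPM (vertical axes, linear, from 0) in the 6 groups (horizontal axes), with 1 symbol per library and a line at the group mean. Gamma-VPE was lowest in WT with TM (41 to 44.1 CPM) and highest in the libraries labelled ire1a1b with TM (105 to 113), and in the cathepsin B panels the triangles of replicate 1 sit above the other libraries in WT and ire1a1b.

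Among the VPEs, gamma-VPE (chr4:15900270-15903523, minus strand) was by far the most abundant. In DMSO the WT libraries held 85.3, 84.6 and 92.1 CPM, those labelled ire1b 91.3, 93.4 and 99.5, and those labelled ire1a1b 85.2, 95.2 and 89.6. With TM the values were 41, 41.8 and 44.1 CPM in WT, 67.7, 71 and 74.4 in ire1b, and 105, 113 and 106 in ire1a1b. The DMSO groups overlapped, whereas the 3 TM groups did not overlap one another and none overlapped the DMSO group of its own genotype. The TM libraries were thus ordered WT, ire1b, ire1a1b, from low to high.

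In WT gamma-VPE was 2.06-fold lower with TM (log2 -1.05 ± 0.06 SE, n = 3 per group). It fell 1.33-fold in the libraries labelled ire1b (log2 -0.42 ± 0.06, edgeR adjusted p = 0.00013) and rose 1.2-fold in those labelled ire1a1b (log2 0.26 ± 0.06, adjusted p = 0.0075). That rise was not called when only the ire1a1b libraries were fitted (adjusted p = 0.11). The response stood above that of WT by log2 0.63 ± 0.09 in ire1b and by 1.31 ± 0.09 in ire1a1b. Between the mutant labels it differed by 0.68 ± 0.09 (adjusted p = 0.00042), a call kept under all 26 alternatives run. Libraries of equal replicate number gave log2 differences of -1.06, -1.02 and -1.06 in WT, -0.43, -0.4 and -0.42 in ire1b, and 0.3, 0.25 and 0.24 in ire1a1b. The spread within a genotype was therefore much smaller than the steps between genotypes.

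Alpha-VPE, a vegetative VPE whose coding sequence is 82.8% identical to that of gamma-VPE, was near the low end of what was counted. It held 3.33 to 5.07 CPM in WT with DMSO and 1.96 to 2.96 with TM (log2 -0.79 ± 0.24). In the libraries labelled ire1b it fell from 3.8 to 4.7 CPM to 1.9 to 3.15 (log2 -0.71 ± 0.24, adjusted p = 0.046), a call lost in 9 of the 18 fits without 1 library (adjusted p 0.052 to 0.2). These lacked ire1b DMSO replicate 1, 2 or 3, ire1b TM replicate 1 or 3, WT TM replicate 2, ire1a1b DMSO replicate 1 or 2 or ire1a1b TM replicate 3. In those labelled ire1a1b the groups overlapped, at 3.19 to 4.22 and 3.02 to 4.88 CPM (log2 0.04 ± 0.23, adjusted p = 0.95). Its response in ire1a1b minus that in WT was 0.83 ± 0.33. Beta-VPE gave log2 -0.54 ± 0.2 in WT, -0.48 ± 0.19 in ire1b (adjusted p = 0.093, or 0.0031 with the block within genotype and 0.011 without the 4 replicate 1 libraries) and -0.05 ± 0.2 in ire1a1b (adjusted p = 0.93). Its difference between ire1a1b and WT was 0.49 ± 0.28. Delta-VPE (AT3G20210), the member of the family known from seed coats and not among the 10, was at 0.903 to 4.51 CPM over all libraries and was called in none of these comparisons.

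Per kilobase of exon, gamma-VPE supplied 83.7% ± 0.831 (SD, n = 3) of the summed CPM of the 4 VPE genes in WT with DMSO. Its share was 80.1% ± 1.34 in WT with TM, 85% ± 1.68 in ire1b with TM and 88.7% ± 1.28 in ire1a1b with TM. The share of beta-VPE was 11.9% ± 1.91 in WT with TM and 5.97% ± 1.07 in ire1a1b with TM. Shares of a sum fall when another gene's share rises. The level of beta-VPE itself was 5.27 ± 1.06 CPM in WT with TM and 6.12 ± 1.34 in ire1a1b with TM. These shares were not tested.

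Cathepsin B is a papain-type protease with both endopeptidase and dipeptide-releasing activity, which takes part in plant defence and cell death. The gene AT1G02305 (chr1:455688-458164, plus strand) held 85.8, 56.7 and 59.6 CPM in the WT libraries with DMSO and 47.6, 36.2 and 32.3 with TM. The libraries labelled ire1b held 57.1, 58.8 and 58.6 CPM with DMSO and 49.7, 47.3 and 46.1 with TM. Those labelled ire1a1b held 80.9, 57.2 and 58.3 with DMSO and 81.8, 72.6 and 69 with TM. TM and DMSO libraries overlapped only in ire1a1b, and replicate 1 was the highest library in every group but ire1b with DMSO.

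The TM response of AT1G02305 was log2 -0.80 ± 0.17 in WT, -0.29 ± 0.17 in ire1b (adjusted p = 0.26) and 0.19 ± 0.17 in ire1a1b (adjusted p = 0.56). With the block within genotype the responses in ire1b and ire1a1b passed, at adjusted p = 0.0026 and 0.026. Without the 4 replicate 1 libraries they passed too, at log2 -0.28 ± 0.05 (adjusted p = 0.0012) and 0.30 ± 0.07 (adjusted p = 0.0058). The response in ire1a1b minus that in WT was 0.99 ± 0.24, and 1.05 ± 0.09 without the replicate 1 libraries. Between ire1a1b and ire1b the difference was 0.47 ± 0.24 (adjusted p = 0.76), and without those libraries it passed, at 0.58 ± 0.09 (adjusted p = 0.0021).

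AT4G01610 (chr4:694582-697206, plus strand) held 110, 79.8 and 94.6 CPM in WT with DMSO and 59.6, 48.2 and 49.7 with TM. The libraries labelled ire1b held 82.9, 85.8 and 90.6 CPM, then 64.4, 63 and 56.3, and those labelled ire1a1b 117, 82.1 and 88.8, then 101, 79.6 and 80.1. The TM libraries lay below the DMSO libraries in WT and ire1b and overlapped them in ire1a1b. The log2 responses were -0.85 ± 0.14 in WT, -0.50 ± 0.14 in ire1b (adjusted p = 0.019) and -0.15 ± 0.14 in ire1a1b (adjusted p = 0.6). The fall in ire1b was not called without ire1b DMSO replicate 3 or ire1b TM replicate 3 (adjusted p = 0.066 and 0.083). The response in ire1a1b minus that in WT was 0.71 ± 0.2.

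The third cathepsin B gene, AT1G02300, lies 168 bases upstream of AT1G02305 on the same strand, and their coding sequences are 89.8% identical. It held 4.44 to 10.6 CPM over all 18 libraries, and TM and DMSO libraries overlapped in all 3 genotypes. Its log2 responses were -0.47 ± 0.29 in WT, -0.19 ± 0.29 in ire1b (adjusted p = 0.73) and -0.36 ± 0.29 in ire1a1b (adjusted p = 0.49, or 0.031 with the block within genotype). Reads with several alignments were not in the gene counts, so any read that matched both neighbours equally was counted for neither. Their longest identical stretch was 53 bases. Per kilobase AT4G01610 made up 52.5% ± 2.75 (SD, n = 3) and AT1G02305 42.8% ± 2.33 of the cathepsin B level in WT with DMSO. In the TM libraries labelled ire1a1b they stood at 48.3% ± 1.1 and 48.2% ± 1.67.

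APA1 (chr1:4016712-4021043, minus strand) held 491, 448 and 461 CPM in WT with DMSO and 377, 352 and 342 with TM. Libraries labelled ire1b were at 441, 431 and 443 CPM with DMSO and 429, 431 and 422 with TM. Those labelled ire1a1b were at 492, 443 and 423, then 524, 513 and 472. Only in WT did the TM libraries lie apart from the DMSO libraries, on the low side. The log2 response was -0.39 ± 0.07 in WT, -0.04 ± 0.07 in ire1b (adjusted p = 0.79) and 0.15 ± 0.07 in ire1a1b (adjusted p = 0.18, or 0.01 with the block within genotype and 0.043 without the 4 replicate 1 libraries). The response in ire1a1b minus that in WT was 0.54 ± 0.1, and that in ire1b minus WT was 0.35 ± 0.1.

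RD21A, which carries a granulin domain behind its protease domain and matures in the vacuole, and AALP, a common marker protein of the lytic vacuole, had the smallest log2 differences in WT. RD21A stood at 187 to 264 CPM in WT with DMSO and 160 to 201 with TM, and AALP at 258 to 320 and 221 to 267, so that both genes overlapped between treatments. Their log2 responses were -0.36 ± 0.13 and -0.27 ± 0.1 in WT. In ire1b they were 0.07 ± 0.13 (adjusted p = 0.76) and 0.09 ± 0.1 (adjusted p = 0.59), and in ire1a1b 0.16 ± 0.13 (adjusted p = 0.5) and 0.11 ± 0.1 (adjusted p = 0.57). With the block within genotype the value of RD21A in ire1a1b passed (0.017). The response in ire1a1b minus that in WT was 0.52 ± 0.18 for RD21A and 0.38 ± 0.14 for AALP.

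AT4G11320 (chr4:6887166-6889879, plus strand), annotated as a papain family cysteine protease, had the deepest fall of the 10. WT libraries held 202, 199 and 277 CPM with DMSO and 42.8, 38 and 48.2 with TM, a 5.25-fold difference (log2 -2.39 ± 0.23). Libraries labelled ire1b went from 204, 210 and 235 CPM to 65.8, 72.1 and 47.1, a 3.51-fold fall (log2 -1.81 ± 0.23, adjusted p = 2.5e-05). Those labelled ire1a1b went from 129, 155 and 231 to 59.7, 94.8 and 78.1, a 2.22-fold fall (log2 -1.15 ± 0.22, adjusted p = 0.0021). TM and DMSO libraries did not overlap in any genotype. It was thus the 1 member called lower under both mutant labels, and its fall in WT is a description. Its response in ire1a1b was higher than in WT by 1.25 ± 0.31, a description like the other differences from WT. Its neighbour AT4G11310, 1648 bases upstream and 91.1% identical in coding sequence, held at most 0.0627 CPM in any library.

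**Figure D2:**
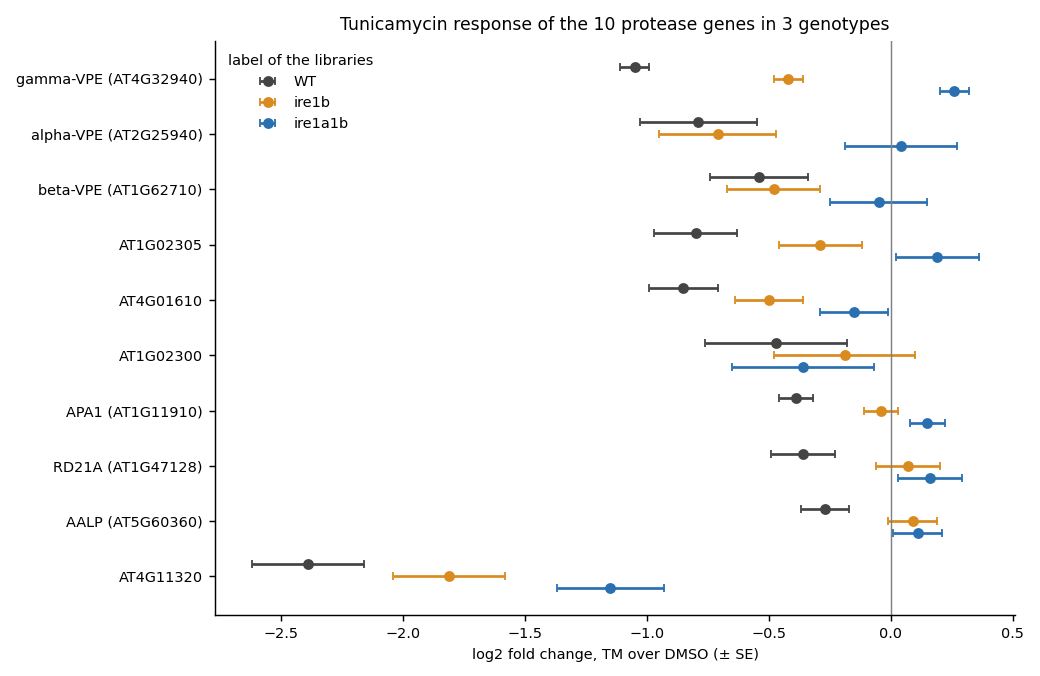
Log2 fold change of TM over DMSO (horizontal axis, ± SE, n = 3 libraries per group) of each gene (rows) in the libraries labelled WT, ire1b and ire1a1b. All 10 WT points lie below 0, gamma-VPE moves from -1.05 through -0.42 to 0.26, and AT4G11320 stays below 0 in each genotype (-2.39, -1.81 and -1.15).

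In the libraries labelled ire1b, 4 of the 10 members were called, all lower (gamma-VPE, alpha-VPE, AT4G01610 and AT4G11320), where 11.6% of all tested genes were called lower and 10.9% higher. Without the 4 replicate 1 libraries, with the block within genotype or in a fit of ire1b alone 6 were called. The calls over all genes went from 4639 to 6857, 7861 and 6206 in these fits. In those labelled ire1a1b, 1 member rose (gamma-VPE) and 1 fell (AT4G11320), where 8.27% of all genes were called higher and 6.59% lower. These 2 became 6 with the block within genotype and 4 without the 4 replicate 1 libraries, while the calls over all genes went from 3064 to 6337 and 3698. For the difference of responses between ire1a1b and WT, 5 of the 10 were called, all higher (gamma-VPE, AT1G02305, AT4G01610, APA1 and AT4G11320), where 3.7% of all genes were called higher. Their number was 8 with the block within genotype, where calls over all genes went from 1262 to 3486. It was 2 to 5 when 1 library was left out, with 981 to 1351 calls over all genes. In those 18 fits the call of AT4G01610 was lost in 15, that of AT4G11320 in 7 and that of AT1G02305 in 5. The calls of gamma-VPE and APA1 were kept in all of them. For ire1b against WT gamma-VPE was called, 1 of 10 and higher, where 2.55% of all genes were called higher. This became 6 with the block within genotype and 5 without the 4 replicate 1 libraries. The calls over all genes went from 855 to 2467 and 1295. Both comparisons with WT contain the WT response used in the choice, and nothing is read from their counts or medians. For ire1a1b against ire1b gamma-VPE was called, 1 of 10 and higher, where 0.184% of all genes were called higher. The 1 became 3 with that block and 2 without those libraries, while the calls over all genes went from 160 to 622 and 254. The medians of these differences over the 10 members were 0.62 (ire1a1b against WT), 0.36 (ire1b against WT) and 0.39 (ire1a1b against ire1b), and over all tested genes -0.01, 0 and 0.

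**Figure D3:**
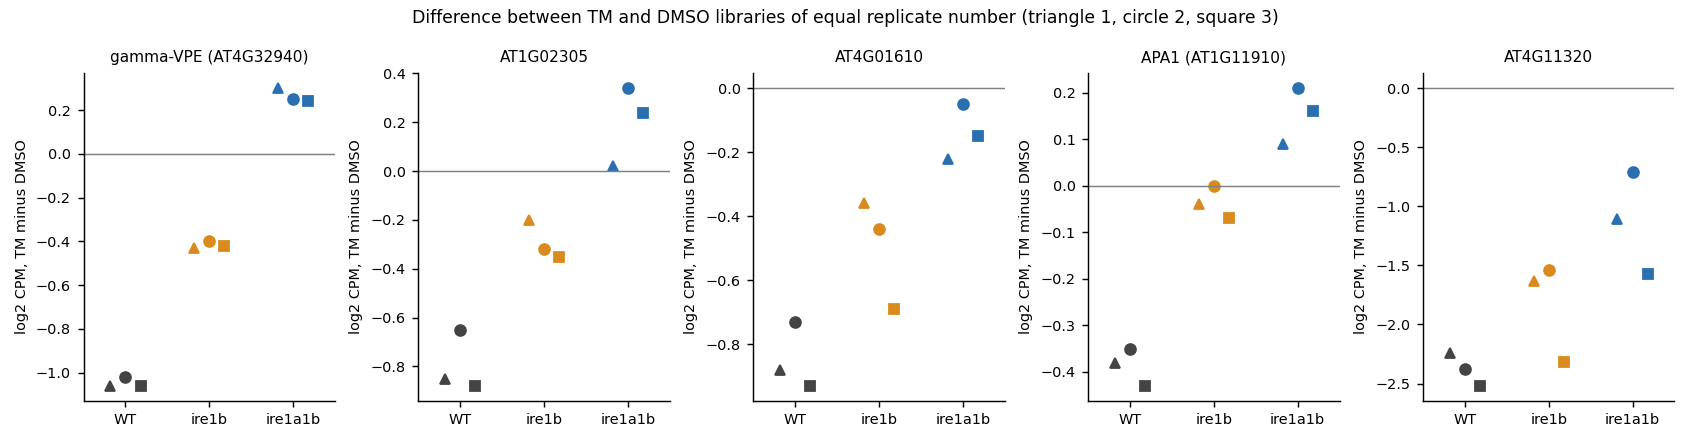
Log2 CPM of each TM library minus the DMSO library of equal replicate number (vertical axes, 1 scale per gene) in 3 genotypes, for the 5 genes called in the difference of responses between ire1a1b and WT. The genes were picked by that difference, so its size here is a description; the gamma-VPE points of ire1a1b are at 0.24 to 0.30 and those of WT at -1.06 to -1.02.

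Without TM, 0 of the 10 members were called between genotypes, by edgeR and by DESeq2. The percentages of all genes called in edgeR were 0.0291% for ire1b against WT, 0.131% for ire1a1b against WT and 0.16% for ire1a1b against ire1b. The smallest unadjusted edgeR p among the members was 0.028, for beta-VPE between ire1a1b and ire1b. Beta-VPE was at 5.25 to 7 CPM in ire1a1b and 7.88 to 9.55 in ire1b (log2 -0.47 ± 0.19, adjusted p = 0.93). In the order of the percentages above, the DMSO differences of gamma-VPE were 0.12 ± 0.06, 0.04 ± 0.06 and -0.07 ± 0.06. Those of AT4G11320 were -0.06 ± 0.22, -0.40 ± 0.22 and -0.33 ± 0.22.

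Compared per kilobase of exon in WT with DMSO, APA1 (161 ± 7.66 CPM per kb, SD, n = 3) and AALP (161 ± 17.2) stood highest, followed by RD21A (116 ± 20), AT4G11320 (96.7 ± 18.8), AT4G01610 (58.2 ± 9.26), AT1G02305 (47.9 ± 11.4) and gamma-VPE (40.9 ± 1.94). AT1G02300 (5.26 ± 1.74), beta-VPE (4.3 ± 0.78) and alpha-VPE (2.22 ± 0.525) were far lower. Neighbours in this order whose difference was within their SDs were APA1 and AALP, RD21A and AT4G11320, AT4G01610 and AT1G02305, AT1G02305 and gamma-VPE, and AT1G02300 and beta-VPE. With TM in WT, AT4G11320 dropped to 18.4 ± 2.19 CPM per kb, next to gamma-VPE at 19.8 ± 0.767.

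The members differed in how replicate 1 stood in WT and ire1a1b. The 3 cathepsin B genes, APA1, RD21A and AALP were highest in replicate 1 in all 4 of these groups. The ratio of replicate 1 to the mean of the others was 1.6 to 1.69 for AT1G02300, 1.16 to 1.48 for AT1G02305 and 1.06 to 1.14 for APA1. The 3 VPEs and AT4G11320 were highest in replicate 1 in none of these 4 groups, with ratios of 0.923 to 0.965 for gamma-VPE. In ire1b, replicate 1 of the first 6 genes stood at 0.94 to 1.12 times the others. What sets these libraries apart was not tested.

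TM also lowered root markers in every genotype. Over all tested genes, 5.77% were called lower in WT, 11.6% in ire1b and 6.59% in ire1a1b. Of 5 root hair markers 5 were called lower in each genotype, and their summed level went from 46.5 to 53.9 CPM to 16.9 to 21.5 in WT, from 60.1 to 62 to 13.7 to 15.2 in ire1b and from 52.3 to 59.8 to 15.2 to 18.7 in ire1a1b. Of 5 root endodermis markers 4 were called lower in each, from 27.2 to 29.1 CPM to 12.7 to 17 in WT, from 22.4 to 28.2 to 7.35 to 12.1 in ire1b and from 28.8 to 29.6 to 6.7 to 12.5 in ire1a1b. No marker of either list was at 0 in a whole group. Gamma-VPE was higher with TM in the ire1a1b libraries, where these sums fell as well. How root RNA bears on that rise was not tested. Of the 5 green shoot markers 0 were called in any genotype at an adjusted p below 0.05 (0 at an unadjusted p below 0.05; summed levels 9450 to 15000 CPM over all libraries). Of 5 xylem markers 2 were lower in WT (134 to 166 CPM with TM, 178 to 220 without), 1 in ire1b (188 to 217 and 211 to 228) and 0 in ire1a1b (170 to 224 and 182 to 225). Of 4 tested senescence markers 0 were called in any genotype (0 in WT, 1 in ire1b and 0 in ire1a1b at an unadjusted p below 0.05). Their summed level was 50.1 to 72.8 CPM over all libraries, and SAG12, the defining one, was at 0 in 4 of the 6 groups. The part of root or xylem RNA in the members' falls was not tested.

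The genes whose profiles over the 18 libraries came nearest to a member were found by the root mean square difference of log2 CPM centred on each gene's own mean. For gamma-VPE these were the ribonuclease gene RNS2 (difference 0.12; log2 TM responses -1.02, -0.45 and -0.01 in WT, ire1b and ire1a1b), the lipid transfer family gene AT1G62790 (0.16; -1.12, -0.48 and 0.36) and the peroxidase gene AT4G11290 (0.16; -0.76, -0.45 and 0.19). RNS2 was close to gamma-VPE in WT and ire1b and stood lower than it in ire1a1b, at -0.01 against 0.26. The genes of this paragraph were picked by likeness over these same libraries, so like TM responses follow from the choice. For AT4G11320 they were the acid phosphatase gene AT4G29270 (0.2; -2.16, -1.67 and -1.17), the peroxidase gene AT2G38380 (0.28) and AT5G54370 (0.3). For AT1G02305 the nearest was another papain-type gene, RD19A (0.12; -0.71, 0.02 and 0.20), then the myrosinase gene TGG1 (0.12) and AT1G53210 (0.12). AT4G01610 was nearest to the purple acid phosphatase gene PAP12 (0.088; -0.89, -0.56 and -0.21), DGR2 (0.099) and the copper amine oxidase gene CuAO1 (0.12). APA1 was nearest to TSC10A (0.049), EMP1 (0.055) and AT5G11720 (0.059), and alpha-VPE to BGLU35 (0.21), AT5G17820 (0.22) and AT3G47210 (0.23).

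Other papain-like cysteine proteases moved in both directions. Shares of all tested genes called higher and lower were 6.13% and 5.77% in WT, 10.9% and 11.6% in ire1b, and 8.27% and 6.59% in ire1a1b. These shares also stand beside the lists that follow. Of the 26 outside the list, 17 were tested; in WT 3 rose and 5 fell, in ire1b 4 rose and 2 fell, and in ire1a1b 2 rose and 2 fell, with median log2 responses of -0.26, -0.07 and 0.11. RD21C (AT3G19390), a paralog of RD21A, rose in all 3 genotypes, by log2 1.73 ± 0.11 (adjusted p = 1e-08), 2.65 ± 0.11 (4.6e-11) and 2.05 ± 0.11 (1.5e-09). RD19B (AT2G21430) rose by 2.43 ± 0.16 in WT and 2.36 ± 0.16 in ire1b (adjusted p = 2.5e-08 and 1.7e-08), and its response in ire1a1b was 2.12 ± 0.23 below that of WT (log2 -2.12, adjusted p = 2.6e-05). CP1 (AT4G36880) rose by 2.1 ± 0.27 in ire1b and 2.48 ± 0.26 in ire1a1b (adjusted p = 3.6e-05 and 6.1e-06). RD21B (AT5G43060), the other RD21A paralog, fell by 0.40 on the log2 scale in WT and by 0.44 in ire1b (adjusted p = 0.0017 and 0.00031). CEP2 (AT3G48340) fell by 1 in WT (adjusted p = 0.00023), and AT3G43960 fell by 0.74 in ire1a1b (adjusted p = 0.00038).

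AT3G45310, the paralog of AALP with 82.1% identical coding sequence, had responses opposite in sign to those of gamma-VPE. It held 44, 44.6 and 50.8 CPM in WT with DMSO and 88.1, 92.2 and 79.3 with TM (log2 0.90 ± 0.08, adjusted p = 9.1e-07). In ire1b it went from 46.7, 43.8 and 48.7 CPM to 59.9, 57.3 and 57.9 (log2 0.33 ± 0.08, adjusted p = 0.0059), and in ire1a1b from 43.5, 39.4 and 47.9 to 36.5, 35 and 34.4 (log2 -0.30 ± 0.08, adjusted p = 0.016). No TM group overlapped its DMSO group. The response differed from WT by log2 -0.57 ± 0.11 in ire1b (adjusted p = 0.0066) and -1.20 ± 0.11 in ire1a1b (adjusted p = 5.3e-06), and between the mutant labels by -0.63 ± 0.11 (adjusted p = 0.0092). AALP itself had log2 responses of -0.27, 0.09 and 0.11.

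**Figure D4:**
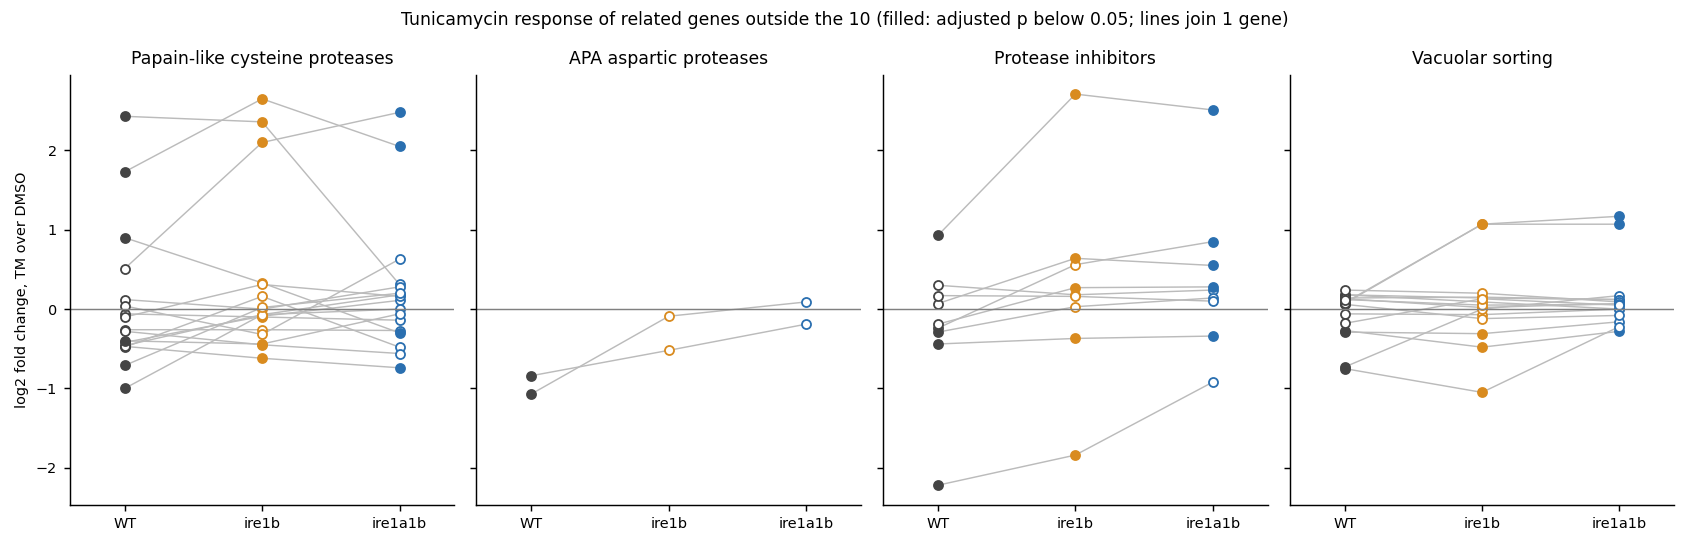
Log2 fold change of TM over DMSO (vertical axis) in the 3 genotypes (horizontal axis) for tested genes related to the 10 members, which are left out; lines join 1 gene, and filled points have an adjusted p below 0.05 in edgeR. In the papain-like panel the line from 0.90 through 0.33 to -0.30 is AT3G45310, and in the inhibitor panel the line from 0.93 through 2.71 to 2.51 is CYS3 (AT2G40880).

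The paralogs of APA1 fell in WT as well, APA2 (AT1G62290) by 1.07 on the log2 scale (adjusted p = 0.017) and APA3 (AT4G04460) by 0.84 (adjusted p = 0.0065). Neither was called in ire1b or ire1a1b. In the tests of the difference of responses from WT, 0 of these 2 were called for either mutant label. The median differences were 0.65 for ire1b and 0.91 for ire1a1b. Among 9 tested protease inhibitor genes, 1 rose and 3 fell in WT, 3 rose and 2 fell in ire1b, and 4 rose and 1 fell in ire1a1b, with medians of -0.19, 0.18 and 0.24. The cystatin CYS3 (AT2G40880), an inhibitor of papain-type proteases, rose by log2 0.93 ± 0.15 in WT (adjusted p = 0.00053), 2.71 ± 0.15 in ire1b (2.1e-09) and 2.51 ± 0.15 in ire1a1b (7.9e-09), and its response exceeded that of WT by 1.78 ± 0.21 and 1.58 ± 0.21 (adjusted p = 6.7e-05 and 0.00014). CYS6 (AT3G12490) rose by 0.64 ± 0.06 in ire1b and 0.55 ± 0.06 in ire1a1b (adjusted p = 6.9e-07 and 4.9e-06). The Kunitz inhibitor KTI1 (AT1G73260) fell by 2.22 in WT and by 1.84 in ire1b (adjusted p = 0.0014 and 0.0026).

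Vacuolar proteins are carried by sorting receptors, of which VSR1 (AT3G52850) is the one known for AALP and storage proteins. VSR1 rose by log2 1.07 ± 0.06 in ire1b (adjusted p = 5e-09) and 1.17 ± 0.06 in ire1a1b (2.9e-09), and both responses exceeded that of WT, by 0.99 ± 0.09 and 1.09 ± 0.09 (adjusted p = 7e-06 and 1.7e-06). VSR6 (AT1G30900) rose by 1.07 ± 0.09 in both mutants (adjusted p = 4e-07 and 5.4e-07). Of 15 tested sorting genes, 1 rose and 3 fell in WT, 3 rose and 3 fell in ire1b, and 2 rose and 1 fell in ire1a1b. Their medians were 0.07, 0.05 and 0.06. Shares of all tested genes called higher and lower were 6.13% and 5.77% in WT, 10.9% and 11.6% in ire1b, and 8.27% and 6.59% in ire1a1b. VSR7 (AT4G20110) fell by 0.75 in WT and by 1.05 in ire1b (adjusted p = 0.0069 and 0.00023). In the wider protease families, 0 of 33 tested subtilases rose and 8 fell in WT, 1 rose and 5 fell in ire1b, and 2 rose and 5 fell in ire1a1b. For 32 serine carboxypeptidase-like genes the counts were 0 and 15, 1 and 15, and 0 and 11, and for 50 aspartyl protease family genes 1 and 14, 3 and 13, and 5 and 6. The median log2 responses of the carboxypeptidase-like genes were -0.64 in WT, -0.43 in ire1b and -0.31 in ire1a1b.

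The coding sequences of the 10 members were read for Asn-X-Ser/Thr codons, the acceptor sites for the sugar chains that TM withholds. All 10 had at least 1, with 1 in gamma-VPE, beta-VPE, APA1 and AT4G11320, 2 in alpha-VPE, AT4G01610, RD21A and AALP, and 4 in AT1G02305 and AT1G02300. The median of 26682 coding sequences was 2. The hexamer CTGCAG, found in mammals in mRNAs cut by IRE1, occurred once, on the coding strand, in alpha-VPE and in APA1 and not in the other 8 members, and in 29.5% of 6156 coding sequences of 1080 to 1554 bases. Whether the number of acceptor codons goes with the TM responses was not tested.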

How the data were processed

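PolyA RNA of 18 seedling libraries was measured by paired-end sequencing, per the labels. The deposited values were raw gene counts, and per the submitters' processing notes the authors used STAR 2.4.0, HTSeq 0.6.0 and TAIR10, and named DESeq2 without a version. Neither the counting mode nor the strand setting nor the annotation release is given in the sources used here, and overlapping and antisense genes are uncertain. HTSeq's summary lines were left out: reads with several alignments (3.331% to 3.713%), reads in no feature (1.202% to 1.419%) and ambiguous reads (1.094% to 1.231%). Replicates were numbered by title, since the replicate tag conflicted with the titles. The sources say nothing of separate cultures, so each p-value reflects only how far these samples spread, possibly for technical reasons.

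Genes kept by filterByExpr (20615 of 27416; 6801 not tested) were scaled by TMM and tested by edgeR 4.0.16 (R 4.3.3) with robust quasi-likelihood fits over all 18 libraries, 1 mean per group. The 9 comparisons were TM against DMSO in each genotype, the 3 contrasts of these responses between genotypes, and the 3 pairs of genotypes compared in DMSO. Benjamini-Hochberg adjustment ran over every tested gene of a comparison, and genes below 0.05 were called. The fits were tested on simulated counts. Annotation and sequences came from RefSeq TAIR10.1, in which 26719 identifiers matched. The members and lists were chosen with earlier results of these data known. All members were named, with up to 4 called genes per list and comparison by smallest p, the 3 nearest profiles of members called with TM, and a few genes fixed by name (delta-VPE, AT4G11310, AT3G45310, IRE1A, IRE1B and BIP3).

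Residuals of libraries of equal replicate number correlated at 0.5 to 0.69 within WT, 0.15 to 0.32 within ire1b and 0.42 to 0.72 within ire1a1b; for ire1a1b against WT the range was 0.34 to 0.84 over all their groups and 0.58 to 0.84 over DMSO alone. These passed the 0.1 set for pairing, a check on the data since no label states it, and for them the replicate block is given beside results it changes. Alternatives were RLE scaling, DESeq2 1.42.0, no filter, at least 1 CPM in 3 libraries, both replicate blocks, fits of the compared groups alone, each library left out and the 4 replicate 1 libraries of WT and ire1a1b left out.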

Additional observations from a re-analysis of the deposited data

Results flagged for a closer look

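The response of gamma-VPE to TM differed between the mutant labels, by log2 0.68 more in ire1a1b than in ire1b, in a test of the difference itself (edgeR adjusted p = 0.00042, 20615 genes, n = 3 per group). Whether this difference was also weighed in the choice of genes was not recorded. The other differences past the threshold were from WT, whose response was used in the choice of genes, and are descriptions. Gamma-VPE stood above WT by 0.63 in the libraries labelled ire1b and by 1.31 in those labelled ire1a1b. For ire1a1b minus WT the values of AT1G02305, AT4G01610, APA1 and AT4G11320 were 0.99, 0.71, 0.54 and 1.25. Of these genes only APA1 was past the threshold in every fit without 1 library.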

How the results depend on the processing

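No member's log2 response changed direction past the threshold in any of the alternatives run. The calls over all tested genes, in brackets, moved with those over the members. For TM in WT the number of members called went from 6 (2453) to 10 (5811) with the replicate block within each genotype and to 3 (848) with only the compared groups fitted. For TM in ire1b it was 4 (4639), then 6 with the block within each genotype (7861), with only the compared groups (6206) and without the 4 replicate 1 libraries (6857), and 2 to 4 with 1 library left out (2 without ire1b DMSO replicate 3 or ire1b TM replicate 3). For TM in ire1a1b it went from 2 (3064) to 6 (6337) with the block within each genotype, to 1 (1567) with only the compared groups and to 4 (3698) when WT and ire1a1b lacked their 4 replicate 1 libraries. For the response of ire1b against WT, 1 member (855) became 2 (1567) with the replicate block over all genotypes, 6 (2467) with the block within each genotype, 5 (1295) without the 4 replicate 1 libraries and 2 (1062) in DESeq2; with 1 library left out it was 1 to 2 (2 without ire1a1b DMSO replicate 1). For ire1a1b against WT, 5 (1262) became 8 (3486) with the block within each genotype and 2 (850) with only the compared groups; with 1 library left out it was 2 to 5 (2 without WT TM replicate 2 or ire1a1b DMSO replicate 2, and 3 without WT DMSO or TM replicate 3, ire1a1b DMSO replicate 3 or any 1 ire1a1b TM library). For ire1a1b against ire1b, 1 (160) became 3 (622) with the block within each genotype and 2 (254) without the 4 replicate 1 libraries. Fitting only the compared groups left fewer libraries to estimate the spread. Fewer members were then called for TM in WT, TM in ire1a1b and ire1a1b against WT, and more for TM in ire1b. The cause of these and the other changes was not tested. In the 2 comparisons of responses with ire1b the residuals of equal replicate number did not all correlate above 0.1, so there the samples may share only a number. The block changed no call between genotypes in DMSO, where the block within each genotype could not be fitted. Alpha-VPE, beta-VPE and AT1G02300 stood at under 11 CPM. Several differences of beta-VPE and AT1G02300 that were not called passed with the block within each genotype. Examples were the TM responses of beta-VPE in ire1b (edgeR adjusted p = 0.0031) and of AT1G02300 in ire1a1b (0.031). Differences called in no fit were not detectable at this depth and spread.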
